A study of Homo sapiens with 4 samples.

Results

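Coding promoters at which an accessible region was called after TAZ activation and none was called without it were described with ATAC-seq of MCF10A cells, an immortalised, non-tumorigenic human mammary epithelial line. The genes were chosen by the measured peak calls. A protein-coding gene of chromosomes 1 to 22 and X was taken when a peak of the Dox list lay within 1 kb of a transcription start site (TSS) of any of its protein-coding transcripts, and no peak of the No Dox list lay within 1 kb of any of these TSSs. This gave 1128 of 19618 genes, here called Dox-only promoters. Of them, 1112 had a gene symbol and 16 an Ensembl identifier alone. All cells carried a tetracycline-inducible TAZ-4SA, a TAZ mutant that escapes inhibition by the Hippo kinases. The Dox cells had received 0.05 µg/mL doxycycline for 72 h, and the No Dox cells carried the same transgene without the drug. Each condition had 2 biological replicates of 50000 cells per reaction, which the authors pooled into 1 peak list. A change with doxycycline itself and a change with TAZ-4SA therefore cannot be told apart here, and with 1 list per condition no test between conditions was possible.

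ATAC-seq uses a transposase that inserts adapters where DNA is not wrapped in nucleosomes, so active promoters and enhancers collect reads. TAZ has no DNA-binding domain of its own and reaches chromatin through partners, above all the TEAD factors, which read a short word with the core CATTCC, and it often works from enhancers together with AP-1. Promoters of broadly used genes usually lie in CpG islands, which tend to be open in most cell types, whereas many tissue-restricted genes have promoters poor in CpG.

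The Dox-only promoters made up 5.75% of all coding genes. In the opposite direction, 781 genes, or 3.98%, had a promoter peak in the No Dox list alone. A promoter peak was present in both lists at 12474 genes, or 63.6%, and in neither at 5235 genes, or 26.7%. These counts describe the rule and were not tested. The Dox list was the shorter, with 84321 peaks covering 54.5 Mb, against 117712 peaks covering 78.4 Mb in No Dox. The median GC content at the summits was 52.2% in Dox and 47.8% in No Dox. The peak lists hold no read counts, so the depth behind each call is unknown, and a missing peak means that no peak was called, not that the promoter was closed. Of 10 genes that mark MCF10A cells or epithelium, 8 had a promoter peak in both lists (KRT5, KRT17, LAMB3, ITGB4, CDH1, EPCAM, EGFR and CAV1), KRT14 had one in neither, and TP63 was itself Dox-only. The TP63 peak lay in an intron, 833 bp from an internal TSS.

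TEAD words stood near the summit at 20 Dox-only promoters whose peak covered the TSS of the Ensembl canonical transcript. The 8 windows printed next are those of the 10 strongest such promoters whose word lay outside annotated coding exons and UTRs. Each is hg38 reference sequence read 5′ to 3′ on the strand of its gene, with the word nearest the summit in capitals (ACATTCC or GCATTCC, or its reverse complement GGAATGT or GGAATGC).
OR2F2, chr7:143935083-143935163, plus strand: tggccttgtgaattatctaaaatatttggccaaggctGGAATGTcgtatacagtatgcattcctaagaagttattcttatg
CIB4, chr2:26641372-26641452, minus strand: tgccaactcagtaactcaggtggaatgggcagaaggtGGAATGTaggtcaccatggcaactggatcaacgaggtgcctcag
UNC13D, chr17:75844854-75844934, minus strand: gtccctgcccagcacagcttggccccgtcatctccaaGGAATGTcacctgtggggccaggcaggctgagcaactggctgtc
LMOD1, chr1:201946631-201946711, minus strand: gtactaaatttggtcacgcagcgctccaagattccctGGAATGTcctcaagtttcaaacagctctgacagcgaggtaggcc
SEMA3B, chr3:50269019-50269099, plus strand: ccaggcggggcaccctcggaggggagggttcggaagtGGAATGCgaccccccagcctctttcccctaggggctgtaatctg
KPRP, chr1:152757885-152757965, plus strand: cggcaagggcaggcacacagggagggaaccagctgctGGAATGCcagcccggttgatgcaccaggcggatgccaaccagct
SYTL5, chrX:38006384-38006464, plus strand: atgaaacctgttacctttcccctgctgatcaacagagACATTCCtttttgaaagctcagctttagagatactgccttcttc
PLAC9, chr10:80131530-80131610, plus strand: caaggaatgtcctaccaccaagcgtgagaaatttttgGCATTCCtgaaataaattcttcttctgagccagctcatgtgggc

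In all 8 windows the word lay upstream of the TSS nearest to the summit, between 46 bp (CIB4) and 129 bp (SYTL5) away. OR2F2 and PLAC9 each held a second TEAD word in lower case in the same window. OR2F2 encodes an olfactory receptor and its peak had a fold enrichment of 9.49 over background at the summit. CIB4, a calcium- and integrin-binding protein, had a fold of 7.91. UNC13D encodes Munc13-4, which primes secretory granules for release, and its peak had a fold of 6.56. LMOD1, a leiomodin of smooth muscle that nucleates actin filaments, and SEMA3B, a secreted semaphorin, both had a fold of 4.97. KPRP, a proline-rich protein of keratinocytes, and SYTL5, a synaptotagmin-like protein that binds RAB27, both stood at 4.75, and PLAC9 at 4.29. All 8 folds lay at or above the upper quartile of this class, 4.29, and 7 of the promoters were poor in CpG, PLAC9 being the exception.

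ANKRD1, a cardiac ankyrin repeat protein and one of the best known YAP/TAZ targets, is shown because its peak held neither full TEAD word. Its 654 bp peak (chr10:90921086-90921739, hg38) covered the single coding TSS, with the summit 216 bp upstream and a fold of 9.27. The 6-base core CATTCC, searched on both strands after the full words had been found missing, occurred at 2 places, in capitals here on the minus strand, the strand of the gene.
ANKRD1, chr10:90921173-90921253, minus strand: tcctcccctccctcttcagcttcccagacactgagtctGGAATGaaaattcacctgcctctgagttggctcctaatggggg
ANKRD1, chr10:90921265-90921345, minus strand: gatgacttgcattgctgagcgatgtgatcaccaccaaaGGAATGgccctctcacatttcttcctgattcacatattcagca

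The cores lay 126 and 218 bp upstream of the TSS, the second of them at the summit. Such a core is common: 23.2% of all coding genes hold it in a window of 654 bases around the canonical TSS. The nearest No Dox peak lay 9217 bp from the TSS, with a fold of 2.75 on the No Dox scale, where 2.02% of No Dox peaks had a lower one.

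The peaks at Dox-only promoters were mostly weak. The fold of the strongest Dox peak of each gene ran from 2.71 to 15.1 with a median of 3.62, and the middle of the distribution lay between 3.39 and 4.29. The Dox peaks of promoters with a peak in both lists had a median fold of 8.36. The −log10 of the q-value had a median of 3.97 at Dox-only promoters and 21.9 at promoters in both lists, and the median peak width was 403 bp against 1083 bp. The rule itself acts on strength, since a faint promoter is more easily called in 1 list and missed in the other, and these values are given as a description. At or above the median fold of the Dox list stood 36.6% of the Dox-only promoter peaks (413 genes; exact 95% interval 33.8% to 39.5%, covering counting error only, as do all intervals here), against 94.2% of those in both lists. The lowest fold of the list was shared by 23 genes, and 259 lay within 2 steps of it, a step being the smallest difference between folds in the list, 0.226.

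**Figure D1:**
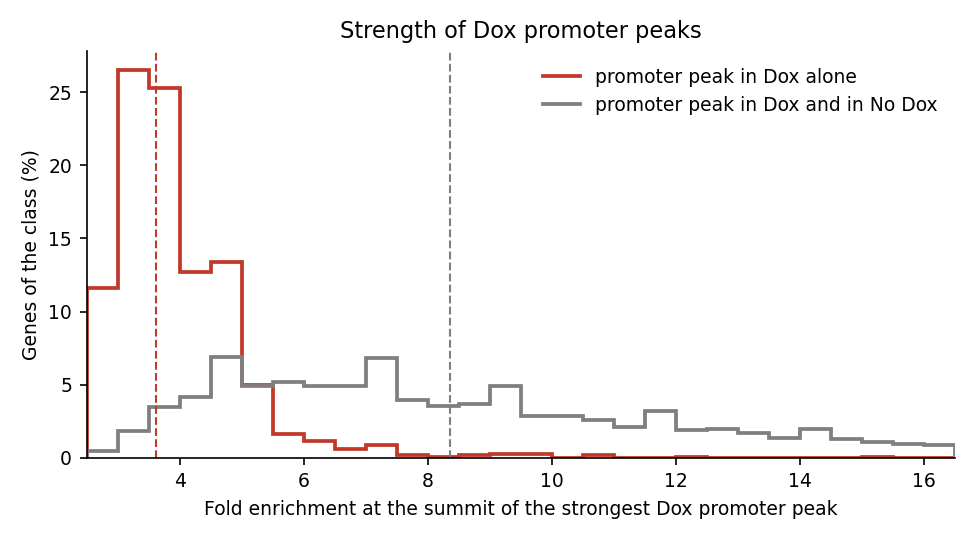
Share of genes (y axis, %) by the fold enrichment at the summit of their strongest Dox promoter peak (x axis, bins of 0.5), for promoters with a peak in Dox alone (red) and in both lists (grey), with dashed lines at the medians of 3.62 and 8.36. The red line piles up near the lower limit of 2.71, while the grey line spreads to the right, and 13.7% of the grey class lie beyond the plotted range.

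Many of the Dox-only peaks lay beside the TSS rather than on it. The peak covered a coding TSS at 576 genes, or 51.1% (48.1% to 54.0%), against 44.3% of genes with a peak in No Dox alone (40.8% to 47.9%) and 92.0% of genes with a peak in both lists (91.6% to 92.5%). The summit fell within 100 bp of the TSS at 31.4%, 26.5% and 53.0% of the genes of these classes in the same order. It lay upstream of the TSS at 46.8% of Dox-only promoters and at 64.6% of promoters in both lists. The share of peaks that covered a TSS rose with the fold, and the gap between these 2 classes was narrower at like fold. Under a fold of 3.5 the share was 32.1% in Dox alone and 51.7% in both lists. From 3.5 to 4.5 it was 54.7% and 71.0%, and from 4.5 to 6 it was 77.8% and 87.0%. Of the Dox-only summits, 37.7% were in introns of coding transcripts, 20.8% in UTRs, 13.8% in coding exons and 27.7% outside coding transcripts. At promoters in both lists, 24.0% were in introns and 37.5% outside coding transcripts. The strongest peak came within 1 kb of the canonical TSS at 931 Dox-only genes (82.5%). Counting every qualifying Dox peak, 963 genes had one within 1 kb of the canonical TSS. At the others an alternative TSS brought the gene in. A single Dox peak qualified at 967 genes, and 161 had 2 or more. In all, 1255 peaks were involved, of which 64 served more than 1 of these genes, and 38 genes had a promoter peak that also lay within 1 kb of a TSS of a gene open in both lists.

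**Figure D2:**
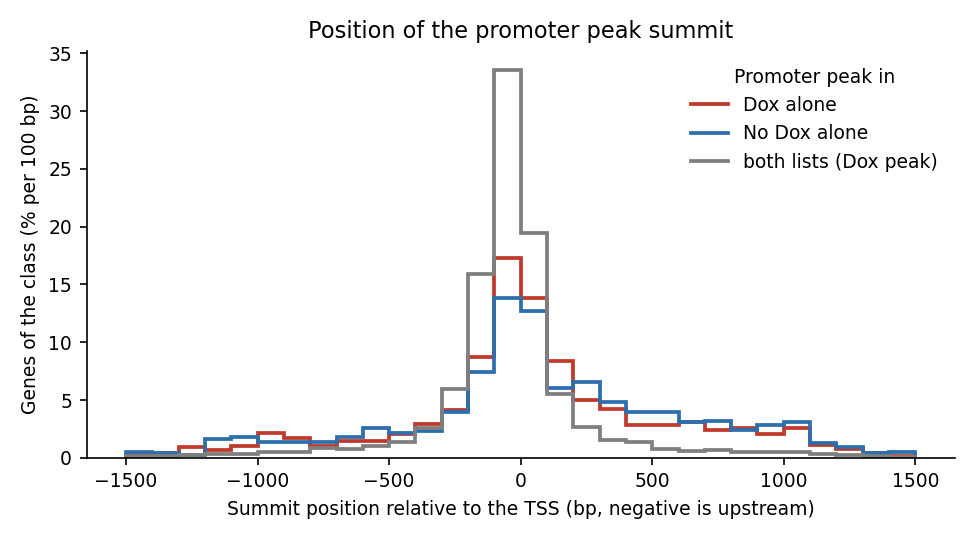
Position of the promoter peak summit relative to the TSS (x axis, bp, negative is upstream) against the share of genes per 100 bp (y axis, %), for promoters with a peak in Dox alone (red), in No Dox alone (blue) and in both lists (grey, Dox peak). Both 1-list classes form a lower and broader hump than the grey class, and their tail downstream of the TSS is heavier.

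The label of a promoter open with TAZ activation alone did not hold for every gene taken by the rule. The nearest No Dox peak lay a median of 9817 bp from a coding TSS of the Dox-only genes. Such distances are measured here from whichever coding TSS of the gene is nearest to a No Dox peak, unless the Dox peak is named as the starting point. It was over 10 kb away at 562 genes (49.8%) and over 50 kb away at 96. At 218 genes, or 19.3% (17.1% to 21.8%), it lay within 3 kb, and at 39 genes the Dox promoter peak overlapped a No Dox peak, so that the same place was called in both conditions and a difference in peak edges decided the class. At the limit of 1 kb, the Dox peaks farthest from a TSS belonged to RBP5 (999 bp), KRT16 (998 bp), ARMCX6 (988 bp), HCN2 (978 bp) and NPFFR2 (978 bp). The nearest genes left out had a Dox peak at 1004 bp (CDH9), 1006 bp (FCRL6), 1007 bp (CLDN20), 1008 bp (COL8A2) and 1011 bp (MAGEB1). On the No Dox side, FTCD, PRAP1 and SYN1 were kept with a No Dox peak at 1003 bp, FXYD1 at 1006 bp and C4orf50 at 1012 bp. Near the limit stood 32 genes whose Dox peak lay more than 900 bp away and 27 whose No Dox peak lay no more than 1100 bp away.

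These edge cases were frequent among the strongest peaks. Of the 15 Dox-only promoters with the highest fold among genes with a symbol, 10 had a No Dox peak within 3 kb of a TSS, and at 7 the peaks overlapped. ENSG00000286224 (9.72) and ENSG00000273047 (8.59), which have an Ensembl identifier alone, also ranked this high, and with them in place of the last 2 of the 15 the peaks overlapped at 8. C18orf63 led with a fold of 15.1, but its intronic peak (chr18:74316502-74317565, hg38) lay 663 bp from the TSS and overlapped a No Dox peak with a fold of 4.66 on the No Dox scale that began 1037 bp from the TSS. ASB2, a substrate receptor of a ubiquitin ligase, had a fold of 10.9 in Dox and overlapped a No Dox peak with a fold of 17.6. SPAAR, which encodes a lysosomal micropeptide, followed at 10.6, C3orf18 at 9.95, ATP6V0A4, a subunit of the vacuolar proton pump, at 9.49, GARIN2 at 8.14, and NRN1, the neuronal growth protein neuritin, at 7.46. Each of these overlapped a No Dox peak. Folds of the 2 lists have different backgrounds and were not compared in size.

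The other 8 of these 15 had separate No Dox peaks or none nearby. ABCA8, a lipid transporter, had a fold of 12.2 in an intron, 293 bp from a TSS, and the nearest No Dox peak lay 44840 bp from this peak. C4BPB, the beta chain of the complement inhibitor C4b-binding protein, had a fold of 9.95 with the nearest No Dox peak 35190 bp from a TSS of the gene. For OR2F2 that distance was 32353 bp and for CIB4 79464 bp. UPK3B, a uroplakin of the urothelial and mesothelial surface, had a fold of 8.59 and a No Dox peak 2066 bp away. PCDHGB7, a clustered protocadherin, had 7.69 and 1617 bp, and MYEOV, a gene found overexpressed in myeloma, 7.46 and 2715 bp. With ANKRD1, the peak covered a TSS at 7 of these 8 genes, ABCA8 being the exception. Of these 15, 13 had a promoter poor in CpG, that is, not CpG-rich as defined below. With the genes without a symbol counted in, 14 did. PCDHGB7 missed that definition only by its GC content (49.3%) and C3orf18 only by its CpG ratio (0.593). At ASB2, C3orf18 and ATP6V0A4 the canonical TSS, which sets this label, lay over 1 kb from the peak.

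**Figure D3:**
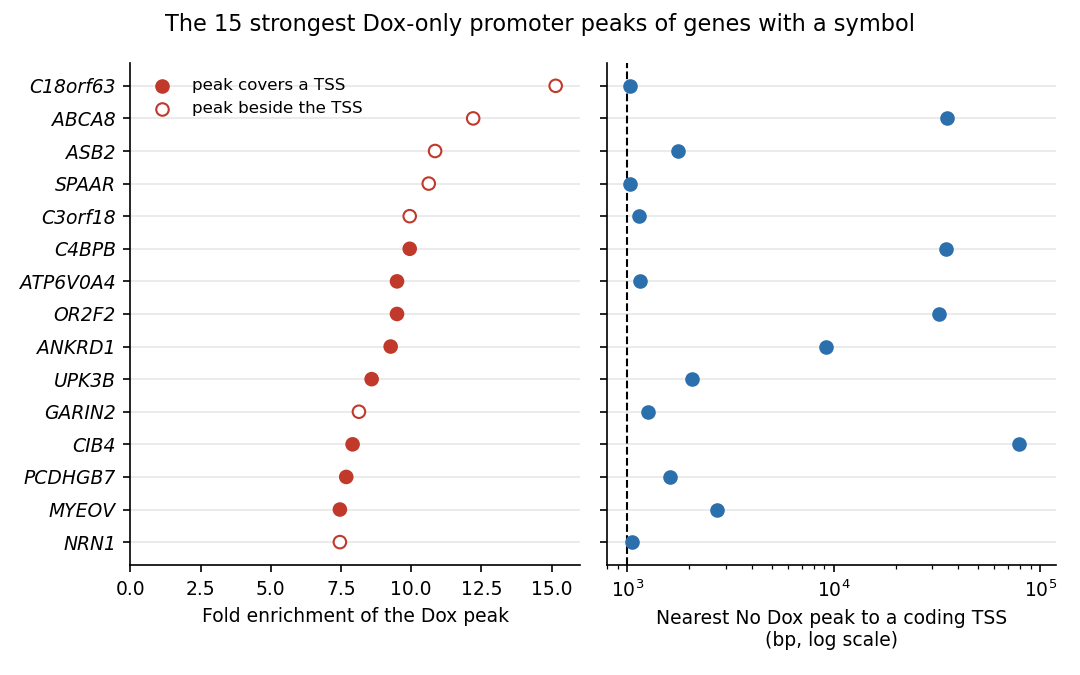
The 15 Dox-only promoters with the highest fold among genes with a symbol, one per line. The left panel gives the fold enrichment of the Dox peak (x axis; filled circles, the peak covers a coding TSS; open circles, it lies beside it), and the right panel the distance from a coding TSS to the nearest No Dox peak (x axis, bp, log scale; dashed line, the limit of 1 kb). SPAAR and C18orf63 sit just past the dashed line at 1037 bp, while CIB4 lies at 79464 bp.

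In CpG content, Dox-only promoters stood between those with a peak in both lists and those with a peak in neither. A promoter was called CpG-rich when the sequence 500 bp on each side of the canonical TSS had at least 50% GC and an observed to expected CpG ratio of at least 0.6. This applied to 619 Dox-only promoters, or 54.9% (51.9% to 57.8%), against 39.9% of promoters with a peak in No Dox alone (36.5% to 43.5%), 84.5% of those in both lists (83.9% to 85.1%) and 25.2% of those in neither (24.0% to 26.4%). Promoters that missed either limit are called poor in CpG here. The interval of the Dox-only class overlapped none of the other 3. Within the class, the peak covered a TSS at 60.1% of the CpG-rich promoters (56.1% to 64.0%) and at 40.1% of the others (35.8% to 44.5%).

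By GC content, a Dox-only promoter was rarest among AT-rich genes. At a GC content of up to 40%, 2.58% of genes (27 of 1048) were Dox-only and 9.35% had a peak in No Dox alone. At 60% to 65% GC these shares were 6.89% (276 of 4005) and 2.50%. The whole peak lists moved with this result, since regions called in Dox alone had a median GC of 50.7% and regions called in No Dox alone 44.3%, over the genome. The part of this list-wide difference in the promoter result was not tested.

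**Figure D4:**
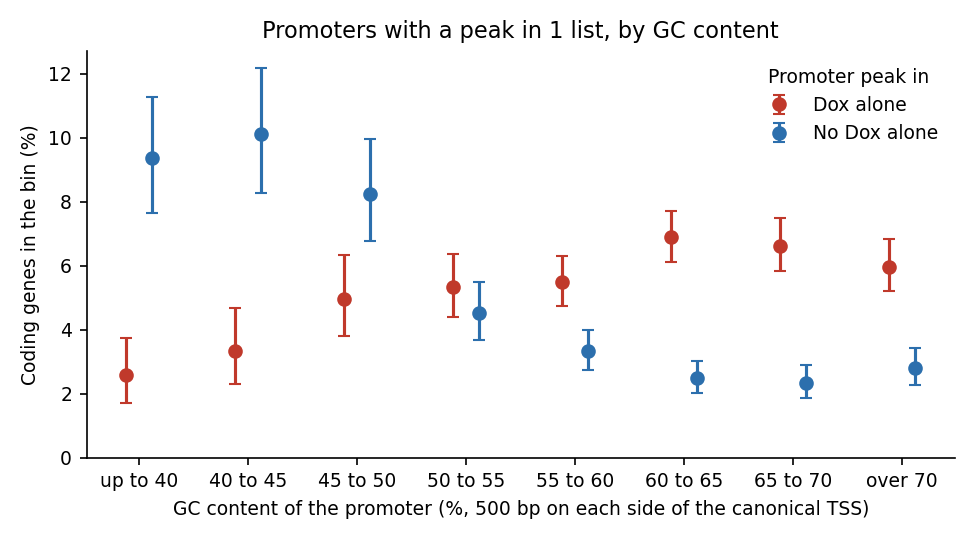
Share of coding genes (y axis, %, with exact 95% intervals) whose promoter had a peak in Dox alone (red) or in No Dox alone (blue), by GC content of the promoter (x axis, %). Red lies below blue up to 50% GC, the intervals overlap at 50% to 55%, and red lies above blue in every bin beyond.

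The genes fell unevenly over the chromosomes as well. The share of Dox-only genes was highest on chromosome 22 (12.9%), 17 (11.1%), 16 (8.43%), 19 (8.17%) and 20 (8.04%), and lowest on 8 (1.73%), X (2.23%), 4 (2.40%) and 13 (2.81%). The whole Dox list held more peaks than the No Dox list on 22 (987 against 651), 17, 16 and 19. It held fewer on 20 (1507 against 1706) and on every other chromosome. The share of genes with a peak in No Dox alone was lowest on 22 (1.38%) and highest on X (8.56%). The part of this list-wide difference in the shares was not tested. Another region called in Dox alone lay within 100 kb of the canonical TSS at 1025 of the 1128 genes, with a median of 4 such regions beside its own. The median number of regions called in Dox alone was 2 around genes with a peak in No Dox alone, 2 around genes with a peak in both lists and 1 around genes with a peak in neither. The densest surroundings were those of PKP1, the desmosomal plakophilin 1 (47 other Dox-only regions), the intestinal homeobox gene CDX1 (45), SLC39A4, a zinc importer (44), SLC6A7, a proline transporter (44), and OPTC, the eye proteoglycan opticin (43). CDX1 and SLC6A7 lie close together on chromosome 5 and share most of this region, and the 5 promoter peaks themselves were weak, with folds between 3.16 (OPTC) and 4.52 (SLC6A7). All 5 genes lie on the chromosomes with the most Dox peaks: 1 (17609), 5 (8315) and 8 (6522). Copy number was not measured, and its part in these counts was not tested.

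The pathway through which TAZ acts had promoter peaks in both conditions for the most part. Of 33 known YAP/TAZ target genes, 1 was Dox-only (ANKRD1), or 3.03% beside 5.75% of all genes, while 30 had a promoter peak in both lists. Of 25 genes of the Hippo pathway and the TEAD family and of 17 genes of the AP-1 family, 0 were Dox-only, and 23 and 15 had a peak in both lists. Of 40 NF-κB and TNF genes, 0 were Dox-only as well. Of 65 cell-cycle genes, 61 had a peak in both lists and 2 were Dox-only: ESPL1, the separase that cuts cohesin, with a fold of 4.75, and BIRC5, the mitotic survival protein survivin, with 3.84.

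Interferon-response genes included 5 Dox-only promoters of 35, or 14.3% beside 5.75% of all genes, and 1 had a peak in No Dox alone (OAS2). IFITM3, which blocks virus entry, had the strongest peak, with a fold of 5.43 across its TSS and the nearest No Dox peak 12354 bp away. BST2, the virus tether tetherin, had 4.29 across its TSS. IFIT2, an antiviral RNA-binding protein, had 4.75 but 656 bp from a TSS, IFI6 had 3.62 at 102 bp, and OAS1, a sensor of double-stranded RNA, 3.39 at 814 bp from an alternative TSS. All 5 promoters were poor in CpG, and 2 of the 5 peaks covered a TSS. Of 31 complement genes listed, 3 were Dox-only (C2, C1QC and CFD), or 9.68%, and 1 had a peak in No Dox alone (SERPING1). The folds of these 3 ran from 3.62 to 4.75. Each peak lay beside an alternative TSS and over 1 kb from the canonical one, and the C2 peak overlapped a No Dox peak. The list did not hold C4BPB, whose Dox-only peak had a fold of 9.95 and covered a TSS.

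Epithelial and mesenchymal genes were Dox-only at shares between 0% and 8%, beside 5.75% of all genes. Of 25 genes of the basal epithelium and the p63 programme, 2 were Dox-only (8%), and 0 had a peak in No Dox alone. KRT6A, a keratin of activated keratinocytes, had a fold of 4.29 across its TSS. TP63, the master regulator of basal epithelium, had the same fold, 4.29, in an intron beside an internal promoter (chr3:189790634-189790938, hg38). The peak lay 833 bp downstream of a coding TSS, with its summit at 1071 bp, and away from the canonical TSS. The nearest No Dox peak lay 33693 bp from this peak. Of 20 luminal genes 0 were Dox-only and 1 had a peak in No Dox alone (PGR). Of 32 epithelial junction genes, 2 were Dox-only (6.25%), PKP1 and TJP3, with folds of 3.62 and 2.94, and 3 had a peak in No Dox alone (CLDN3, DSG3 and GRHL2). Of 39 mesenchymal and matrix genes, 3 were Dox-only (7.69%), beside 4 with a peak in No Dox alone (BGN, COL1A2, COL5A2 and DCN). PDGFRA, the PDGF receptor alpha, had 4.29 but overlapped a No Dox peak, COL5A1, a chain of collagen V, had 3.39, and COL6A2, a chain of collagen VI, had 3.16. KRT7, a simple-epithelial keratin, had 6.33 upstream of its TSS.

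Genes that nearly all cells use appeared in the class too. Beside 5.75% of all genes, cytosolic ribosomal protein genes gave 10 of 84 (11.9%), all CpG-rich and 9 with the peak across a TSS. Mitochondrial ribosomal protein genes gave 8 of 78 (10.3%), 7 of them with the peak across a TSS. RPL19 had a fold of 5.43 with its summit 15 bp upstream of the TSS, and the nearest No Dox peak lay 12430 bp away. RPL11 had 4.75 with the nearest No Dox peak 51466 bp away. PSMB4, an essential proteasome subunit, had 5.88 across its TSS and the nearest No Dox peak was 26431 bp away, and EEF2, the elongation factor that moves the ribosome, had 3.62. PSMB4 and EEF2 were the 2 Dox-only genes of 37 housekeeping genes (5.41%, near the share of all genes), and the other 35 had a peak in both lists. Mediator, the complex that links factors to RNA polymerase II, gave 3 of 33 (9.09%). These were MED27 (fold 4.97), MED1 (4.75) and MED18 (3.62), each with a CpG-rich promoter and a peak across the TSS. Processed copies of ribosomal protein genes share reads with their parents, and how such reads were placed is not given in the sources used here.

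Developmental and tissue-restricted families showed other positions. Of 39 HOX genes, which set position along the body axis, 8 were Dox-only (20.5%, beside 5.75% of all genes). All 8 were CpG-rich, yet the peak covered a TSS at 1 of them. HOXC11 had a fold of 4.07 with its summit 752 bp downstream of the TSS, HOXA10 had 3.62 at 729 bp and HOXB9 had 3.62 at 464 bp, each in a coding exon. The 8 folds ran from 2.71 to 4.07. Of 65 protocadherin genes, 8 were Dox-only (12.3%) and 10 had a peak in No Dox alone (15.4%, beside 3.98% of all genes). Of 44 collagen genes, 6 were Dox-only (13.6%) and 5 had a peak in No Dox alone (11.4%). Of 391 olfactory receptor genes, 10 were Dox-only (2.56%) and 57 had a peak in No Dox alone (14.6%), with a median promoter GC of 39.7%. Of 512 zinc finger genes, 14 were Dox-only (2.73%). Of 373 solute carrier genes, 22 were Dox-only (5.90%, beside 5.75% of all genes) and 22 had a peak in No Dox alone (5.90%, beside 3.98%). Protocadherin, olfactory receptor and keratin genes have near-identical copies, so the placement of their reads is uncertain.

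Markers of other cell types were counted beside the 5.75% of all genes. Of 18 immune-cell markers, 2 were Dox-only (CD79A of B cells and NKG7 of cytotoxic cells), or 11.1%, and 2 had a peak in No Dox alone (GNLY and ITGAM). Of 12 endothelial markers, 0 were in either class. Of 10 fibroblast markers, 1 was Dox-only (PDGFRA) and 2 had a peak in No Dox alone (COL1A2 and DCN). Of 16 neuronal markers, 2 were Dox-only (RBFOX3 and SYN1), or 12.5%, 1 had a peak in No Dox alone (NEFL) and 8 had one in both lists. The peaks of RBFOX3 and SYN1 lay beside an alternative TSS, and that of SYN1 overlapped a No Dox peak. The Dox-only folds ran from 3.39 (NKG7) to 4.29 (PDGFRA and RBFOX3).

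TEAD words were not frequent at Dox-only promoters as a whole. The sequence 100 bp on each side of the summit held ACATTCC or GCATTCC, on either strand, at 55 genes, or 4.88% (3.69% to 6.30%). The share was 3.84% at promoters with a peak in No Dox alone (2.61% to 5.44%), 3.77% at promoters in both lists (3.44% to 4.12%) and 2.91% around the canonical TSS of all coding genes. Over all 84321 peaks of the Dox list it was 11.6%, and over all No Dox peaks 7.01%. The same words read backwards without complementing (CCTTACA or CCTTACG), a control of the same letters, were found at 1.60% of Dox-only summits. CCTTACG holds a CpG and neither TEAD word does, so this control is not matched in CpG content. Of the 55 genes, 20 had a peak across the canonical TSS, and their 23 words lay upstream of it in 16 cases, 10 of these within 200 bp.

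The share with a TEAD word varied with the strength of the peak. It was 3.72% at Dox-only peaks with a fold under 3.5 (16 of 430), 3.74% from 3.5 to 4.5 (16 of 428), 6.22% from 4.5 to 6 (14 of 225) and 20.0% at a fold of 6 or more (9 of 45; 9.58% to 34.6%). At promoters in both lists with a fold of 6 or more it was 3.98% (363 of 9119; 3.59% to 4.40%). The backwards words, which are not matched in CpG content, were found at 0 of the 45, with an exact interval of up to 7.87%. The 9 genes were C18orf63, OR2F2, CIB4, AOC1, FABP6, RAB11FIP3, AKAP6, UNC13D and KRT7. A No Dox peak lay within 3 kb of a coding TSS of 4 of them (C18orf63, AOC1, FABP6 and RAB11FIP3). Without such genes the share was 5 of 27, or 18.5% (6.30% to 38.1%). At C18orf63 and RAB11FIP3 the Dox peak overlapped a No Dox peak. The Dox peak lay beside the TSS at C18orf63, FABP6, RAB11FIP3 and KRT7. At C18orf63, RAB11FIP3 and KRT7 the summit was over 1 kb from the nearest TSS, so the word lay outside the promoter window. At a fold of 6 or more, the peak covered a TSS at 64.4% of Dox-only promoters and at 96.7% of those in both lists. The strong Dox-only promoters were also poorer in CpG, 37.8% being CpG-rich against 87.9% of strong promoters in both lists. This label describes the canonical TSS, and some of the strong Dox-only peaks lay over 1 kb from it. Among the 9 genes with a TEAD word, AOC1, FABP6 and AKAP6 were such cases. Among promoters poor in CpG with a fold of 6 or more, the share with a TEAD word was 21.4% in the Dox-only class (6 of 28; 8.30% to 41.0%) and 8.25% in both lists (6.69% to 10.0%), and these intervals overlapped.

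**Figure D5:**
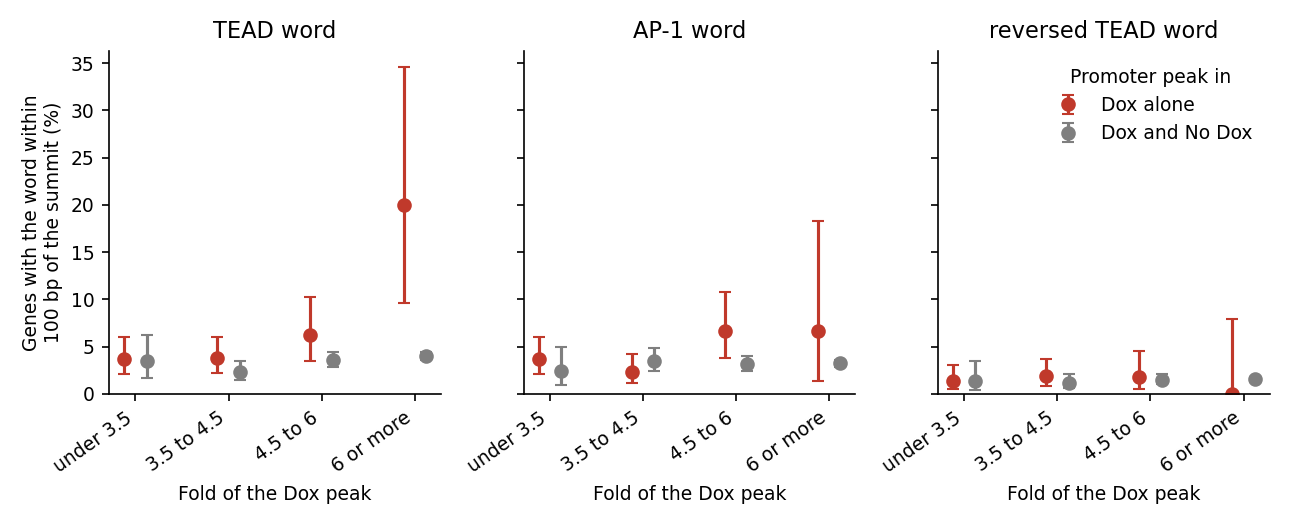
Share of promoters (y axis, %, with exact 95% intervals) that held a TEAD word, an AP-1 word or the reversed TEAD word within 100 bp of the summit, by fold of the Dox peak (x axis), for promoters with a peak in Dox alone (red) and in both lists (grey). The red TEAD point reaches 20.0% at a fold of 6 or more with a wide interval, and the other points lie below 7%.

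Words of other factors were counted in the same windows. The AP-1 words TGACTCA and TGAGTCA occurred at 44 Dox-only summits, or 3.90% (2.85% to 5.20%), against 6.40% in No Dox alone (4.79% to 8.35%), 3.21% in both lists and 13.5% of all Dox peaks. TEAD and AP-1 words stood together at 4 Dox-only summits. The ETS word CCGGAAG was found at 6.29% of Dox-only summits (4.95% to 7.87%), against 3.71% in No Dox alone, 13.7% in both lists and 11.2% around the canonical TSS of all coding genes. The GC box GGGGCGGGG, read by SP and KLF factors, was found at 10.2% (8.49% to 12.1%), against 4.35%, 21.2% and 18.3% in the same order. Among CpG-rich promoters alone, the GC box share was 14.2% in Dox alone (11.6% to 17.2%) and 22.7% in both lists (21.9% to 23.5%). NFY words (CCAATCA or CCAATGA), whose factor binds close to the TSS of many promoters, were at 3.90% of Dox-only summits (2.85% to 5.20%) and at 10.8% in both lists (10.2% to 11.3%), with 8.38% around the canonical TSS of all coding genes. A word at a summit is a match of letters and no measure of binding.

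The GC box is shown at COL6A2 and NRN1, in capitals in hg38 sequence on the strand of the gene, as an example of that word. It also occurs in the peaks of CIB4, UNC13D and PLAC9, whose TEAD words were printed before.
COL6A2, chr21:46097800-46097882, plus strand: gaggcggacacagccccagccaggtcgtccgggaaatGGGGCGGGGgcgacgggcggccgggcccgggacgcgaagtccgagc
NRN1, chr6:6008813-6008895, minus strand: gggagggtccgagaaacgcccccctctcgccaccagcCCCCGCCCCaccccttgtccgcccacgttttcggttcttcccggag

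At COL6A2 the box lay 271 bp upstream of the nearest TSS, in a promoter of 79.2% GC with a CpG ratio of 0.75. At NRN1 it lay 1249 bp upstream of the nearest TSS, in the peak that overlapped a No Dox peak.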

How the data were processed

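Chromatin accessibility was measured by ATAC-seq in 4 samples, 2 biological replicates each with 0.05 µg/mL Dox for 72 h and without Dox. Alignment by the authors was to hg38 with BWA, and the pooled replicates of a condition went to MACS2 with an FDR limit of 0.05; versions are not given in the sources used here, nor is any shift of reads for the transposase or any handling of duplicate and multi-mapped reads. For each peak the authors deposited the fold enrichment at the summit, a ratio of pooled signal to background, the −log10 of the q-value, a display score that was not used, and the offset of the summit. Pooling leaves no spread between replicates, so no test was run.

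The peak positions were placed against 78397 TSSs of 88858 protein-coding transcripts of GENCODE release 44 on hg38, with genes taken by symbol. For a gene with several qualifying peaks, the one with the highest fold was described. Sequence was read with pysam 0.24.0 from hg38. Both strands were searched for words up to 100 bp from the summit, and shares carry exact Clopper-Pearson 95% intervals from scipy 1.17.1, which cover counting error only and treat genes as independent, although neighbours can share a peak. Classes and word search were tested on simulated data. Named genes, taken among those with a symbol, were the 15 with the highest fold, the 10 strongest with a TEAD word in a peak across the canonical TSS, up to 5 per gene list, 5 on each side of the distance limits, and the 5 with most other Dox-only regions within 100 kb; AOC1, FABP6, RAB11FIP3, AKAP6, KRT7, RPL19, RPL11, HOXC11, HOXA10 and HOXB9 were added after their values were seen. The fold classes at 3.5, 4.5 and 6 and the split by CpG content at a fold of 6 were also set by hand. The promoters and gene lists were chosen with earlier results of these data known. Alternatives covered peak thresholds, windows, transcripts and motif windows.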

Additional observations from a re-analysis of the deposited data

How the results depend on the processing

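Of 71 recomputed values over 14 alternative settings, 44 stayed within the interval of the reported value (for the number of genes, within 1.5 times). The number of Dox-only promoters was 1128, and between 413 and 1434 under the alternatives. It was 413 with the Dox peaks held to a q-value of at most 1e-05 and the No Dox peaks as deposited, and the same 413 with the Dox peaks at or above the median fold. Among these 413, 69.0% of peaks covered a TSS, 62.0% of promoters were CpG-rich, 7.26% had a TEAD word and the median fold was 4.75. With a q-value of at most 1e-05 in both lists there were 1024 genes, of which 413 were among the 1128. Of these 1024, 75.5% had a peak across a TSS and 70.3% were CpG-rich, with a median fold of 4.75. With the No Dox list limited to as many of its best q-values as the Dox list has peaks, 54.3% of peaks covered a TSS and the median fold was 3.84 (1434 genes). The share of peaks across a TSS was 61.8% with a window of 500 bp, 39.0% with 3 kb, 57.6% with the summit alone, and 54.8% with no No Dox peak within 3 kb. The CpG-rich share was 58.4% with no No Dox peak within 3 kb, 57.8% with canonical transcripts and 32.6% with a CpG ratio of at least 0.75 and 55% GC. The TEAD share was 6.38% with a window of 3 kb, 2.30% within 50 bp of the summit and 12.1% over the whole peak, and the AP-1 share was 2.04% and 6.83% in those last 2 searches. No paired analysis was possible because the replicates of each condition were pooled into 1 list. For the same reason no replicate could be left out. The depth of the pooled libraries is unknown, so a promoter absent from the No Dox list may lie just under its threshold.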
